A study of Mus musculus with 4 samples.

Results

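The 4 adult haemoglobin genes in the feature list, Hba-a1, Hba-a2, Hbb-bs and Hbb-bt, were followed across 4 mouse brain sections. They are 4 of the 19090 genes counted, chosen by name as the adult alpha and beta chain genes and summed per section, labelled region, expression cluster and plaque mark. The sections were methanol-fixed and stained with haematoxylin and eosin. The assay was Visium, in which barcoded spots on a slide capture RNA from the tissue lying on them, so that a spot can hold several cells. Each genotype had 1 hemisphere section, and every mouse was a male aged 9 months. The 5xFAD-Dp16 mouse carried both 5xFAD and Dp16, the 5xFAD mouse carried 5xFAD, the Dp16 mouse carried Dp16, and the wild-type mouse was C57BL/6J. 5xFAD mice carry mutant human transgenes of familial Alzheimer's disease under the neuronal Thy1 promoter and form amyloid plaques. Dp16 is a duplication of the stretch of mouse chromosome 16 that corresponds to much of human chromosome 21. The sources used here do not name the background strain of the other mice.

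Haemoglobin is the oxygen carrier of red cells and is built from alpha and beta chains around haem. Its genes are switched on during red cell maturation by erythroid factors, and young red cells that have lost their nucleus still hold the transcripts. In brain tissue they are known mainly from blood in the vessels, although low levels have also been described in some neurons and glia. The sources used here do not say whether blood was washed out of the vessels before freezing.

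In RefSeq (GRCm38.p6) the alpha genes Hba-a1 and Hba-a2 lie at chr11:32283672-32284486 and chr11:32296492-32297310. The adult beta genes Hbb-bs and Hbb-bt lie at chr7:103826523-103827928 and chr7:103812524-103813923. None of the 4 lies on chromosome 16. The 250 bases before the annotated start of Hba-a1, Hbb-bs and Hbb-bt are shown because they show how alike the genes are. Capitals mark short sequences known from globin promoters, searched on both strands. These are the GATA element GATAAG, the CACC element CACCC, the CAAT element CCAAT and the TATA-like element ATATAA. The windows are chr11:32283422-32283671 on the plus strand, chr7:103827929-103828178 on the minus strand and chr7:103813924-103814173 on the minus strand, in the order shown.
Hba-a1: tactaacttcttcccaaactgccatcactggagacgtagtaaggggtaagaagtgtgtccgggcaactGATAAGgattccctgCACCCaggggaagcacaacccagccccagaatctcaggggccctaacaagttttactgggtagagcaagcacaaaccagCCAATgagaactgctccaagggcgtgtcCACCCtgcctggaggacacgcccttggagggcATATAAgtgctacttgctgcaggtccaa
Hbb-bs: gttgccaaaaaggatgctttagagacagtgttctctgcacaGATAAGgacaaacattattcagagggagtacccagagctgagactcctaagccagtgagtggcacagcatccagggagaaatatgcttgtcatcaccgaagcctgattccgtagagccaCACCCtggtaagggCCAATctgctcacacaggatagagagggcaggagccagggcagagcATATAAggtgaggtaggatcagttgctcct
Hbb-bt: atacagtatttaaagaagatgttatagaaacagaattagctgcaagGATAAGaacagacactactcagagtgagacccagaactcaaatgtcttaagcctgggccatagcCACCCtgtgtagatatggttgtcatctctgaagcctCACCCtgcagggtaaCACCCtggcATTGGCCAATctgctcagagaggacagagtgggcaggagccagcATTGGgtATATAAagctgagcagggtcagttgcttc
The Hba-a2 window shares an unbroken run of 297 of 300 bases with that of Hba-a1, counted over the 250 bases before and the 50 after the start. The Hbb-bs and Hbb-bt windows were 70.9% identical when aligned. All 4 members matched a RefSeq promoter, and all 4 hold each of the 4 sequences at least once. Over 32851 promoter windows of the same length, 6.55% hold GATAAG, 52.0% CACCC, 33.8% CCAAT and 9.10% ATATAA, and 0.140% hold all 4. ATATAA begins at position -28 in Hba-a1, -31 in Hba-a2, -30 in Hbb-bs and -29 in Hbb-bt, with the base before the start as position -1. In Hbb-bt, 2 CCAAT matches lie on the minus strand, where they read as ATTGG. These matches describe the letters only. The sources used here do not say how reads that match both alpha genes were counted, so the split between Hba-a1 and Hba-a2 is uncertain and their sum is the firmer value.

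The sections held 2941 spots in 5xFAD-Dp16, 2347 in 5xFAD, 2540 in Dp16 and 2721 in wild-type, with 26049860 to 36461389 UMIs (unique molecules counted) a section. Median UMIs per spot lay between 9404 and 11639, and the median percent of mitochondrial counts between 14.3 in 5xFAD and 16.7 in Dp16. Plaque marks were present in both 5xFAD sections and in 0 spots of the Dp16 and wild-type sections. The arrays share spot barcodes: of 3164 barcodes, 1996 occurred in all 4 sections. Barcodes of the 1% of spots richest in haemoglobin in each section had medians of 1 to 4 haemoglobin UMIs in the other sections, where the medians of all spots were 1 or 3. With 1 section per genotype no difference below has a replicate check, no p-value was computed, and spots were not treated as replicates. Every interval is at 95% and covers counting error only.

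The 4 genes were lowest in the Dp16 section and highest in the wild-type section. Levels are in CPM, a gene's UMIs per 1000000 UMIs of its section, and are not scaled to transcript length. Hba-a1 had 201 CPM in 5xFAD-Dp16, 264 in 5xFAD, 117 in Dp16 and 285 in wild-type. Hba-a2 had 178 CPM in 5xFAD-Dp16, 220 in 5xFAD, 95.6 in Dp16 and 253 in wild-type. Both alpha genes thus had the same order of sections. Hbb-bs had 418 CPM in 5xFAD-Dp16, 506 in 5xFAD, 252 in Dp16 and 712 in wild-type. Hbb-bt, the less abundant beta gene, had 59.7 CPM in 5xFAD-Dp16, 67.2 in 5xFAD, 31.3 in Dp16 and 94.3 in wild-type. The beta genes kept the order of the alpha genes. Summed, the 4 genes gave 31243 UMIs (857 CPM) in 5xFAD-Dp16, 27557 (1058 CPM) in 5xFAD, 15323 (496 CPM) in Dp16 and 46159 (1343 CPM) in wild-type. In sums over spots, fewer red cells and less RNA per cell cannot be told apart.

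**Figure D1:**
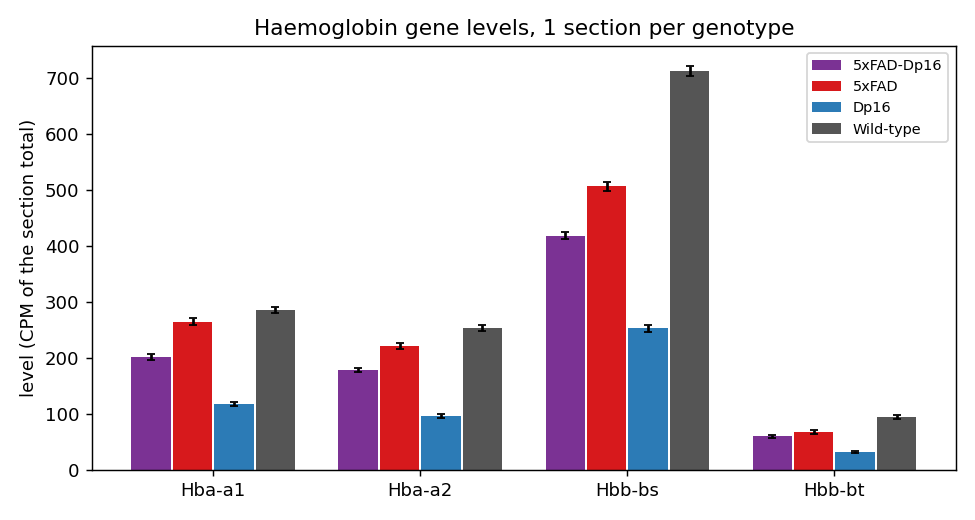
Level in CPM of each haemoglobin gene in the 5xFAD-Dp16, 5xFAD, Dp16 and wild-type sections, 1 section each. Bars start at 0 and error bars are exact Poisson intervals of counting error. Dp16 is lowest and wild-type highest for each gene, for example 252 against 712 CPM for Hbb-bs.

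The sum in Dp16 over wild-type had a log2 ratio of -1.44 (-1.46 to -1.41), and the single genes lay between -1.59 for Hbb-bt and -1.28 for Hba-a1. All 4 genes were at least 1.5-fold lower in Dp16, where, of the 11033 genes of at least 5 CPM, 3.11% were that much lower and 2.02% that much higher, and the median of all genes was -0.13. Hbb-bt ranked 14 from the lowest of those genes and Hba-a1 ranked 25. The sum in 5xFAD-Dp16 over Dp16 had a log2 ratio of 0.79, with the genes between 0.73 for Hbb-bs and 0.93 for Hbb-bt. All 4 were at least 1.5-fold higher in 5xFAD-Dp16, against 1.2% of all genes tested (1.02% were that much lower). This comparison shares the Dp16 section with the one before.

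In 5xFAD over wild-type the sum was at -0.34, with the alpha genes at -0.11 and -0.20 and the beta genes both at -0.49. In 5xFAD-Dp16 over 5xFAD the sum was at -0.30, with the genes between -0.39 for Hba-a1 and -0.17 for Hbb-bt. In both comparisons 0 of the 4 genes passed 1.5-fold, against 1.92% higher and 1.14% lower of all genes in 5xFAD over wild-type. In 5xFAD-Dp16 over 5xFAD, 0.625% of all genes were higher and 0.798% lower. The 5xFAD ratio with Dp16 minus that without it, a double difference over all 4 sections, was 1.13 for the sum, and 0.89 for Hba-a1, 1.09 for Hba-a2, 1.22 for Hbb-bs and 1.42 for Hbb-bt.

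The haemoglobin UMIs lay in few spots. The median spot held 1 haemoglobin UMI in 5xFAD-Dp16, 5xFAD and Dp16 and 3 in wild-type. The spot with the most held 1848 in 5xFAD-Dp16, 1762 in 5xFAD, 758 in Dp16 and 1377 in wild-type. In that 5xFAD spot, haemoglobin made up 19.6% of all 8967 UMIs. The richest 1% of spots held 56.0% of the haemoglobin UMIs in 5xFAD-Dp16, 54.4% in 5xFAD, 43.1% in Dp16 and 41.3% in wild-type. The richest 10% held 87.7% in 5xFAD-Dp16, 88.9% in 5xFAD, 77.2% in Dp16 and 79.2% in wild-type. Counting error alone gives a variance near the mean, whereas the variance over the mean was 523 in 5xFAD-Dp16, 481 in 5xFAD, 158 in Dp16 and 359 in wild-type. Counting intervals are therefore far narrower than the spread between spots.

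Rich spots and the rest of the section had different orders of sections. Spots with at least 100 haemoglobin UMIs numbered 54 in 5xFAD-Dp16, 50 in 5xFAD, 28 in Dp16 and 85 in wild-type. Among the rest, once the richest 10% of spots were left out, the sum was 120 CPM in 5xFAD-Dp16, 129 in 5xFAD, 128 in Dp16 and 311 in wild-type. In that remainder the 5xFAD-Dp16, 5xFAD and Dp16 sections lay between 120 and 129 CPM, and wild-type stood apart. There 5xFAD-Dp16 over Dp16 turned to -0.098 and 5xFAD over wild-type to -1.27, whereas Dp16 over wild-type was -1.28. Outside the richest 10% of spots, 5xFAD-Dp16 and 5xFAD thus no longer stood clearly above Dp16, whereas wild-type did. Those spots were picked by the haemoglobin sum itself, so the cut narrows such gaps by construction. With only the richest 1% left out, the sum was 382 CPM in 5xFAD-Dp16, 488 in 5xFAD, 285 in Dp16 and 799 in wild-type.

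**Figure D2:**
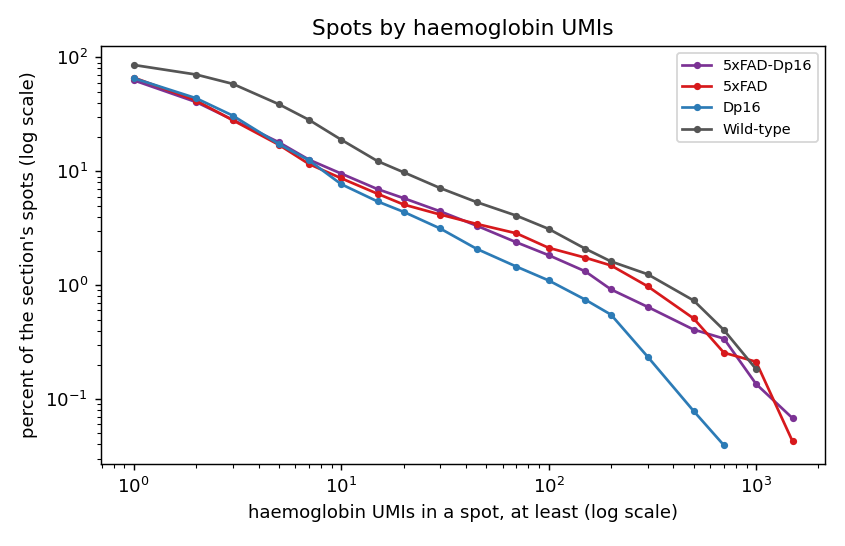
Percent of each section's spots that held at least a given number of haemoglobin UMIs, both axes on log scales, for the 5xFAD-Dp16, 5xFAD, Dp16 and wild-type sections. Wild-type lies above the other sections at each plotted count up to 700 UMIs. The last Dp16 point is at 700 UMIs, and the highest Dp16 spot held 758, below the highest spots of the others.

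To set spots of unlike depth side by side, each spot was thinned at random to 4755 UMIs, and 196 to 235 shallower spots a section were left out. The share of spots with a haemoglobin UMI was then 44.6% (42.7 to 46.5) in 5xFAD-Dp16, 48.6% (46.4 to 50.7) in 5xFAD, 47.6% (45.6 to 49.7) in Dp16 and 68.7% (66.8 to 70.5) in wild-type. Unthinned shares were 63.0% in 5xFAD-Dp16, 66.6% in 5xFAD, 65.7% in Dp16 and 85.9% in wild-type. For Hbb-bs alone the thinned share was 31.2% in 5xFAD-Dp16, 34.3% in 5xFAD, 32.3% in Dp16 and 54.1% in wild-type. Wild-type also had the highest thinned share for each of the 4 genes. With at least 5 haemoglobin UMIs after thinning, the share was 9.43% in 5xFAD-Dp16, 10.0% in 5xFAD, 7.85% in Dp16 and 17.4% in wild-type.

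The same was seen region by region, over the 12 labelled regions with at least 30 spots in every section. The thinned share was highest in wild-type in 11 of the 12, and Cortex SSp was the exception, with 44.6% in 5xFAD-Dp16, 52.9% in 5xFAD, 60.6% in Dp16 and 50.0% in wild-type. The Hypothalamus had the highest share in wild-type, with 45.01% in 5xFAD-Dp16, 47.1% in 5xFAD, 39.3% in Dp16 and 79.6% in wild-type. In the Hippocampus the sections lay closer, with 65.6% in 5xFAD-Dp16, 69.8% in 5xFAD, 59.0% in Dp16 and 70.1% in wild-type. In 9 of the 12 regions the interval in Dp16 lay below that in wild-type, and in 7 the interval in 5xFAD lay below that in wild-type.

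**Figure D3:**
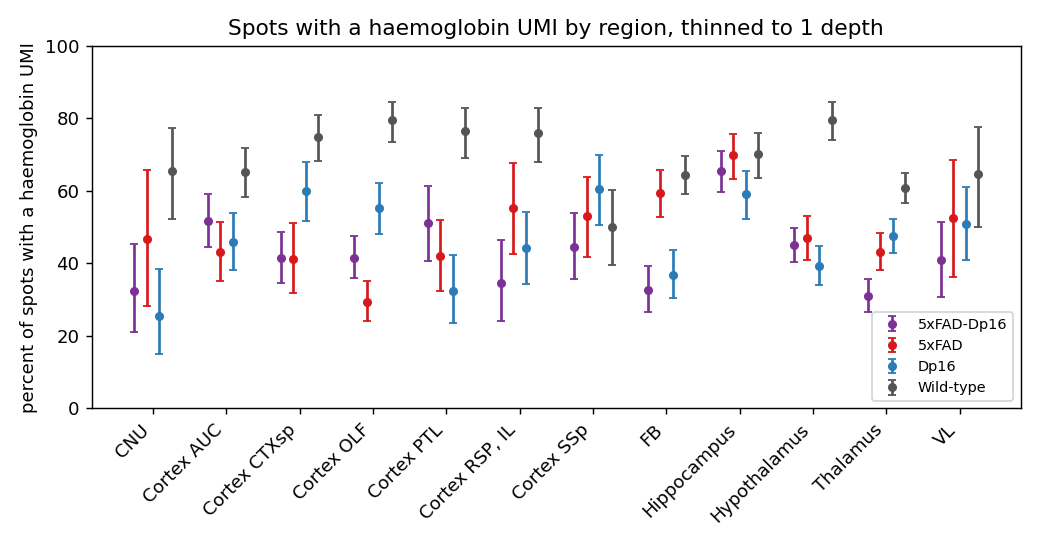
Percent of spots with at least 1 haemoglobin UMI after thinning to 4755 UMIs, by labelled region, in the 5xFAD-Dp16, 5xFAD, Dp16 and wild-type sections. Error bars are exact binomial intervals that take spots as independent; wild-type is highest in 11 of 12 regions.

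Summed levels by region varied more, and a few spots held much of them. Dp16 was below wild-type in 12 of 12 regions, from -0.22 in VL to -4.23 in CNU on the log2 scale, with a median of -1.57. In CNU the sum was 752 CPM in 5xFAD-Dp16, 2057 in 5xFAD, 86.2 in Dp16 and 1620 in wild-type. There 1 spot held 69.9% of the UMIs in 5xFAD-Dp16, 84.2% in 5xFAD, 14.5% in Dp16 and 61.5% in wild-type. In the Hippocampus the sum was 1877 CPM in 5xFAD-Dp16, 2270 in 5xFAD, 495 in Dp16 and 806 in wild-type. Here both 5xFAD sections were above wild-type, the reverse of the whole section. In the Hypothalamus it was 712 CPM in 5xFAD-Dp16, 2226 in 5xFAD, 334 in Dp16 and 991 in wild-type. 5xFAD was lower than wild-type in 7 of the 12 regions and higher in 5, and 5xFAD-Dp16 was higher than Dp16 in 9 and lower in 3. Without cluster 10 these counts were 10 lower and 2 higher for 5xFAD over wild-type, and 6 higher and 6 lower for 5xFAD-Dp16 over Dp16. The Hypothalamus then had 395 CPM in 5xFAD against 948 CPM in wild-type, whereas Dp16 was still below wild-type in 12 of 12 regions. Without the region labelled Hypothalamus, 5xFAD-Dp16 over 5xFAD was -0.0020.

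The deposited expression clusters hold 1 group of spots, cluster 10, whose leading genes are the 4 haemoglobin genes. Since the clusters were made from expression, its levels are a description. It held 83 spots in 5xFAD-Dp16 (2.82%), 73 in 5xFAD (3.11%), 50 in Dp16 (1.97%) and 144 in wild-type (5.29%). Those spots carried 58.2% of the haemoglobin UMIs in 5xFAD-Dp16, 66.6% in 5xFAD, 44.7% in Dp16 and 49.3% in wild-type. After thinning, 96.2% of the cluster's spots held a haemoglobin UMI in 5xFAD-Dp16, 100% in 5xFAD, 100% in Dp16 and 83.2% in wild-type. The cluster was thus less uniformly rich in haemoglobin in wild-type, so its size and the values without it compare less directly for that section. The cluster spread over 11 to 13 labelled regions in each section. Its commonest region was the Hypothalamus with 25 spots in 5xFAD-Dp16, 19 in 5xFAD and 7 in Dp16, and the Thalamus with 43 in wild-type. Outside it, the sum was 369 CPM in 5xFAD-Dp16, 363 in 5xFAD, 279 in Dp16 and 715 in wild-type. Its most loaded spot was also the most loaded of the section in all 4 sections.

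Away from cluster 10, cluster 8 had a high share of spots with a haemoglobin UMI. After thinning, that share was 79.9% in 5xFAD-Dp16, 91.1% in 5xFAD, 64.1% in Dp16 and 87.9% in wild-type. Its leading genes were Lrrc10b, Cabp7, Spink8, Klk8 and Fibcd1, and it lay in the region labelled Hippocampus for 159 of 164 spots in 5xFAD-Dp16, 132 of 136 in 5xFAD, 150 of 167 in Dp16 and 127 of 134 in wild-type. mt-Atp8, a mitochondrial gene, was among its 10 leading genes. The spots used had median UMI counts of 7162 in 5xFAD-Dp16, 6876 in 5xFAD, 6742 in Dp16 and 9424 in wild-type before thinning. The part of mitochondrial content and depth in this share was not tested. Cluster 12, led by meningeal and smooth muscle genes such as Myoc, Slc6a13 and Acta2, also had high shares, of 73.9% in 5xFAD-Dp16, 73.8% in 5xFAD and 65.0% in Dp16, and under 30 spots in wild-type.

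The richest 1% of spots, picked by the 4 haemoglobin genes alone, were next searched for other red cell genes. Alas2, the erythroid form of the enzyme that starts haem synthesis, was concentrated in the same spots. They held 36 of 54 Alas2 UMIs in 5xFAD-Dp16, 23 of 44 in 5xFAD, 11 of 17 in Dp16 and 36 of 64 in wild-type. These are 66.7% (52.5 to 78.9) in 5xFAD-Dp16, 52.3% (36.7 to 67.5) in 5xFAD, 64.7% (38.3 to 85.8) in Dp16 and 56.2% (43.3 to 68.6) in wild-type. The same spots held 1.33% of all UMIs in 5xFAD-Dp16, 1.22% in 5xFAD, 0.953% in Dp16 and 1.21% in wild-type. Alas2 was also lowest in Dp16, at 1.48 CPM in 5xFAD-Dp16, 1.69 in 5xFAD, 0.550 in Dp16 and 1.86 in wild-type. Its log2 ratio was -1.76 (-2.62 to -0.97) in Dp16 over wild-type, and it lies under the level filter of 5 CPM. The order of the other sections was within counting error for Alas2. It was at -0.14 (-0.73 to 0.44) in 5xFAD over wild-type and -0.19 (-0.79 to 0.42) in 5xFAD-Dp16 over 5xFAD. Some other erythroid genes under that filter went the other way in Dp16 over wild-type. The erythroid regulator Tal1 had 49 UMIs in 5xFAD-Dp16, 47 in 5xFAD, 55 in Dp16 and 23 in wild-type, with a log2 ratio of 1.41 (0.69 to 2.18) in Dp16 over wild-type. The regulator Klf1 was at 1.15 (-0.15 to 2.59), and the alpha-like gene Hbq1a at 0.97 (0.068 to 1.92).

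Ube2l6, a ubiquitin-conjugating enzyme abundant in maturing red cells, ranked next after the 4 genes among genes of at least 5 CPM by the smallest enrichment of the 4 sections in those spots. Its log2 ratio of the richest 1% over the other spots was 2.10 in 5xFAD-Dp16, 2.08 in 5xFAD, 1.31 in Dp16 and 2.84 in wild-type. Those spots held 16 of 293 of its UMIs in 5xFAD-Dp16, 9 of 182 in 5xFAD, 5 of 215 in Dp16 and 19 of 235 in wild-type. The other genes of the red cell list in this comparison were spread over the section. Bpgm, which makes the red cell regulator bisphosphoglycerate, had 1.65% of its UMIs there in 5xFAD-Dp16, 1.42% in 5xFAD, 0.844% in Dp16 and 1.63% in wild-type. Mkrn1, Bnip3l, a mitophagy receptor, and Fech, the last enzyme of haem synthesis, had between 0.936 and 1.76%. The interval of each of Bpgm, Mkrn1, Bnip3l and Fech reached the share of all UMIs in those spots, apart from Mkrn1 in 5xFAD and Fech in Dp16, whose lower bounds of 1.30 and 1.06% lay above it.

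**Figure D4:**
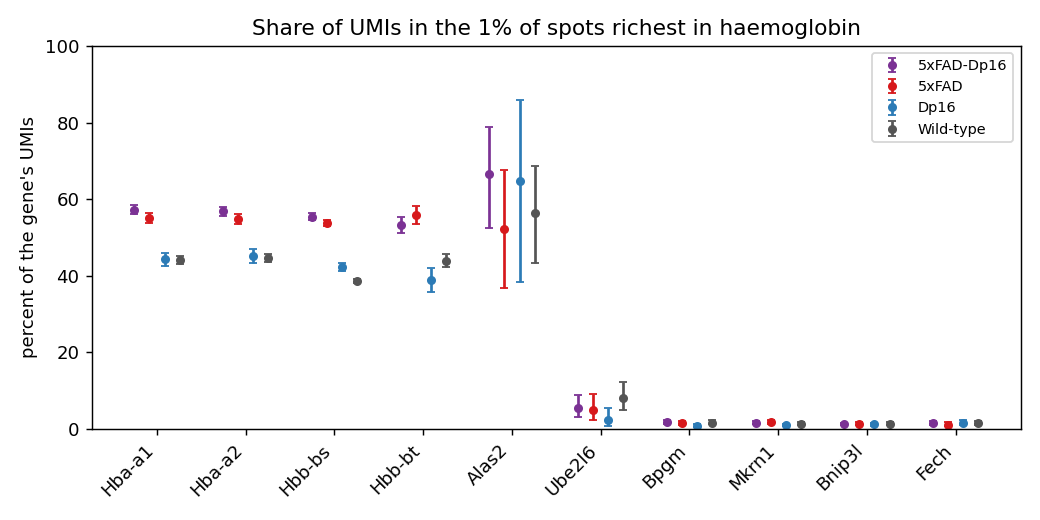
Percent of each gene's UMIs that lay in the 1% of spots with the most haemoglobin UMIs, in the 5xFAD-Dp16, 5xFAD, Dp16 and wild-type sections, with exact binomial intervals. The haemoglobin genes chose the spots; Alas2 did not, and lies between 52.3 and 66.7%, while Bpgm, Mkrn1, Bnip3l and Fech lie between 0.844 and 1.76%.

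Other cell markers in those spots differed between sections. The choroid plexus list, led by Ttr, was at 37332 CPM in the richest 1% against 15015 CPM in the other spots in 5xFAD-Dp16, 4270 against 20366 CPM in 5xFAD, 42551 against 33452 CPM in Dp16 and 1896 against 7373 CPM in wild-type. The meningeal list had 2780 against 1879 CPM in 5xFAD-Dp16, 1383 against 1580 CPM in 5xFAD, 5898 against 2277 CPM in Dp16 and 801 against 1134 CPM in wild-type. The sums of both lists were thus higher in rich spots than in other spots in 5xFAD-Dp16 and Dp16, and lower in 5xFAD and wild-type. Over whole sections most of the meningeal sum was 1 gene, Ptgds, and most of the choroid plexus sum was Ttr. The other genes of these lists were not looked at singly in rich spots. The endothelial list differed little, with 968 against 865 CPM in 5xFAD-Dp16, 996 against 930 CPM in 5xFAD, 1145 against 998 CPM in Dp16 and 743 against 794 CPM in wild-type. The part of these markers in the haemoglobin levels was not tested.

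The 4 genes kept similar proportions. Alpha genes made up 44.3% of haemoglobin UMIs in 5xFAD-Dp16 (43.7 to 44.8), 45.8% in 5xFAD (45.2 to 46.4), 42.9% in Dp16 (42.1 to 43.7) and 40.0% in wild-type (39.6 to 40.5). Wild-type was lowest, with an interval below those of the other sections. Without the richest 10% of spots, the alpha share was 40.0% in 5xFAD-Dp16, 43.6% in 5xFAD, 41.0% in Dp16 and 35.7% in wild-type. Hbb-bt made up 12.5% of beta UMIs in 5xFAD-Dp16, 11.7% in 5xFAD, 11.04% in Dp16 and 11.7% in wild-type. Hba-a2 made up 46.9% of alpha UMIs in 5xFAD-Dp16, 45.4% in 5xFAD, 44.9% in Dp16 and 47.0% in wild-type, under the limit given for the near-identical alpha genes. Over the 12 regions, the alpha share lay between 34.5 and 48.3% in 5xFAD-Dp16, 40.8 and 48.8% in 5xFAD, 35.2 and 52.7% in Dp16 and 35.1 and 42.2% in wild-type. The 52.7% in Dp16 came from CNU, with 55 UMIs.

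Across spots the genes varied together most where they were abundant. In the 83 spots of cluster 10 in 5xFAD-Dp16, the correlation of log2(CPM + 1) was 0.94 for Hba-a1 with Hba-a2 and 0.91 for Hba-a1 with Hbb-bs, while over all 2941 spots it was 0.52 for both pairs. These are descriptions over spots of 1 library. By the smallest correlation of the 4 sections with the haemoglobin sum, the 10 most similar other genes were Rps29, mt-Nd3, mt-Nd4, mt-Co2, mt-Nd2, Gm42418, mt-Nd5, mt-Nd1, mt-Atp6 and Rps21. Their smallest correlations lay between 0.10 and 0.13, too weak in sparse counts to be read as a finding. The share of haemoglobin in a spot's UMIs had rank correlations with its percent of mitochondrial counts of 0.23 in 5xFAD-Dp16, 0.16 in 5xFAD, 0.23 in Dp16 and 0.29 in wild-type. The part of mitochondrial content in the haemoglobin levels was not tested.

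Plaque spots were compared with spots marked neither plaque nor plaque neighbour, within regions and weighted by plaque spots. In 5xFAD-Dp16 the haemoglobin sum was 651 CPM in 380 plaque spots against 1129 CPM in 1556 unmarked spots, a log2 ratio of -0.79 (-0.85 to -0.73) over 11 regions. In 5xFAD it was 1694 CPM in 310 plaque spots against 1148 CPM in 1234 unmarked spots, a log2 ratio of 0.56 (0.51 to 0.61) over 10 regions. The directions were opposite in the 2 sections, but the ratio in 5xFAD depended on which rich spots were kept. It stayed positive without cluster 10 and without the richest 1% of spots, but nearly vanished when only the highest spot was left out. Without the spot richest in haemoglobin in each section, the ratio was -0.35 (-0.42 to -0.29) in 5xFAD-Dp16 and 0.054 (-0.00056 to 0.11) in 5xFAD, where plaque spots had 1193 CPM against 1149 CPM in unmarked spots. The genes lay between -1.07 for Hbb-bt and -0.74 for Hbb-bs in 5xFAD-Dp16, and between 0.54 for Hba-a1 and 0.64 for Hbb-bt in 5xFAD. In 5xFAD-Dp16, 4 of 4 genes were at least 1.5-fold lower in plaque spots, against 3.08% of all genes lower and 3.08% higher. In 5xFAD only Hbb-bt was at least 1.5-fold higher, against 2.97% of all genes higher and 3.95% lower.

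Regions differed in direction. Plaque spots were higher in 5 regions and lower in 6 in 5xFAD-Dp16, and higher in 5 and lower in 5 in 5xFAD. The Thalamus was the largest contributor of plaque-spot UMIs in 5xFAD, with 2310 UMIs and 3154 CPM in plaque spots against 707 CPM in unmarked spots. Of those UMIs 1762 were in 1 spot, and without it plaque spots had 758 CPM, a log2 ratio of 0.10 (-0.046 to 0.24). In 5xFAD-Dp16 the Hippocampus had 886 CPM in plaque spots against 3100 CPM in unmarked spots, and the Hypothalamus 176 against 761 CPM. Without cluster 10 the region-weighted ratio was -0.11 in 5xFAD-Dp16 and stayed positive in 5xFAD. Without the richest 1% of spots it was -0.43 in 5xFAD-Dp16 and 1.10 in 5xFAD. With regions not matched and cluster 10 left out, plaque spots were instead lower in both sections. They had 358 against 389 CPM in 5xFAD-Dp16 and 376 against 392 CPM in 5xFAD.

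**Figure D5:**
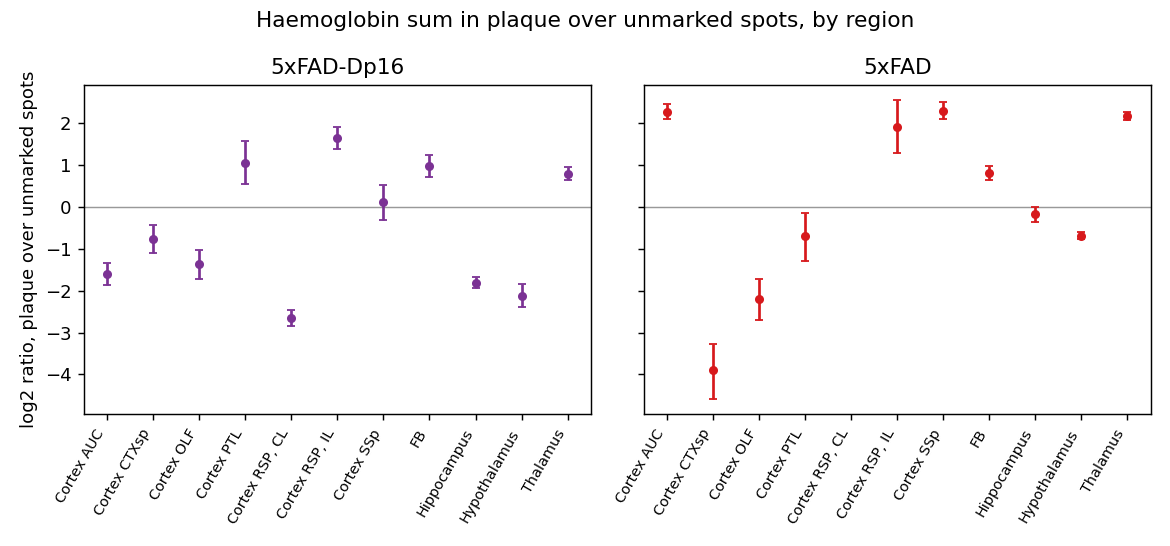
Log2 ratio of the haemoglobin sum in plaque over unmarked spots by labelled region, in 5xFAD-Dp16 (left) and 5xFAD (right), with exact conditional binomial intervals of counting error. Points lie on both sides of 0 in both sections, 5 higher and 6 lower in 5xFAD-Dp16 and 5 and 5 in 5xFAD.

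The share of spots with a haemoglobin UMI differed less than the sums. After thinning and weighting by region, it was 41.1% in plaque spots against 44.5% in unmarked spots in 5xFAD-Dp16, and 44.5% against 46.7% in 5xFAD. It was lower in plaque spots in 7 of 11 regions in 5xFAD-Dp16 and in 6 of 10 in 5xFAD.

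Genes of haem synthesis, haem clearance and hypoxia were next counted by the same rule, at least 5 CPM and 1.5-fold. Of the 11 haem synthesis genes, 10 had at least 5 CPM and 0 of them passed 1.5-fold in any of the 4 comparisons; Alas2, below 5 CPM, is described above. With 0.625 to 3.11% of all genes passing in a given direction, counts of 0 in lists of this size do not set them apart. In Dp16 over wild-type they lay between -0.45 for Abcb10, a mitochondrial transporter, and 0.31 for Urod, which makes coproporphyrinogen. The others, among them Alas1, Alad, Cpox and Fech, lay between these values, with a list median of -0.057 beside -0.13 for all genes. Of the genes of haem clearance and iron, 0 of 11 passed in any comparison. Fth1, the ferritin heavy chain that stores iron, had 11527 CPM in 5xFAD-Dp16, 9725 in 5xFAD, 9408 in Dp16 and 9021 in wild-type. Ftl1, the ferritin light chain, had 976 CPM in 5xFAD-Dp16, 896 in 5xFAD, 826 in Dp16 and 692 in wild-type. Trf, the iron carrier transferrin, had 406 CPM in 5xFAD-Dp16, 503 in 5xFAD, 383 in Dp16 and 450 in wild-type. Blvrb, a biliverdin reductase, was the highest of the list in Dp16 over wild-type at 0.35, and Trf the lowest at -0.23. Hmox1, the inducible haem oxygenase, was under 5 CPM in the mean, with a log2 ratio of 0.65 in 5xFAD-Dp16 over Dp16 and -0.13 in Dp16 over wild-type. Of the hypoxia response genes, such as Ldha, Bnip3 and Slc2a1, 0 of 8 passed in any comparison. Adm, a hypoxia-induced peptide hormone under 5 CPM, was at -0.94 in Dp16 over wild-type.

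The other globins had their own patterns. Neuroglobin (Ngb), a globin of neurons, had 33.0 CPM in 5xFAD-Dp16, 17.2 in 5xFAD, 23.0 in Dp16 and 35.1 in wild-type. Cytoglobin (Cygb), found in fibroblast-like cells and some neurons, had 63.5 CPM in 5xFAD-Dp16, 60.8 in 5xFAD, 73.7 in Dp16 and 56.6 in wild-type. Ngb was at least 1.5-fold lower in Dp16 and in 5xFAD than in wild-type, at -0.61 and -1.03, and higher in 5xFAD-Dp16 than in 5xFAD, at 0.94, while Cygb passed in no comparison. The embryonic beta-like gene Hbb-y had 4 UMIs in 5xFAD-Dp16, 3 in 5xFAD, 1 in Dp16 and 6 in wild-type. The alpha-like genes Hbq1a and Hbq1b and myoglobin (Mb) had 1 to 33 UMIs a section.

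The red cell list summed to 383 CPM in 5xFAD-Dp16, 380 in 5xFAD, 366 in Dp16 and 403 in wild-type. Of its 5 genes of at least 5 CPM, 0 passed in any comparison. In Dp16 over wild-type those 5 lay between -0.22 for Mkrn1 and 0.026 for Ube2l6, beside a median of -0.13 for all genes. The lower sum in Dp16 is thus not set apart from genes at large. The red cell membrane gene Epb42 had 0 UMIs in 5xFAD-Dp16, 2 in 5xFAD, 0 in Dp16 and 9 in wild-type. Of 10 endothelial genes, 1 was at least 1.5-fold higher in Dp16 than in wild-type (Vwf, 1.02), against 2.02% of all genes, and the list summed to 867 CPM in 5xFAD-Dp16, 931 in 5xFAD, 1000 in Dp16 and 793 in wild-type. Of its most abundant genes, Bsg was at 0.42, Pltp at 0.51 and Ly6c1 at 0.024 in that comparison, and Flt1 was the lowest at -0.30. Of 7 pericyte and smooth muscle genes 2 were at least 1.5-fold higher in Dp16, Acta2 at 0.79 and Tagln at 0.60, with Myl9 at 0.45 and Vtn at 0.31 below that fold. The rest of that list lay near 0, with Pdgfrb at 0.098, Higd1b at -0.013 and Rgs5 the lowest at -0.10. The meningeal list summed to 1891 CPM in 5xFAD-Dp16, 1578 in 5xFAD, 2311 in Dp16 and 1130 in wild-type, with 6 of 6 genes higher in Dp16 than in wild-type, 5 of them at least 1.5-fold, and Col1a2 at 0.49. The choroid plexus list summed to 15313 CPM in 5xFAD-Dp16, 20170 in 5xFAD, 33539 in Dp16 and 7306 in wild-type, with 6 of 6 genes at least 1.5-fold higher in Dp16. The sums of the endothelial, meningeal and choroid plexus lists were thus highest in Dp16 and lowest in wild-type. Most of the meningeal sum was Ptgds, at 2192 CPM in Dp16 and 1079 in wild-type. Ttr made up most of the choroid plexus sum, at 32148 CPM in Dp16 and 6803 in wild-type. Most of the endothelial sum was Bsg, at 691 CPM in Dp16 and 516 in wild-type. Other endothelial genes went both ways in Dp16 over wild-type, for example Cldn5 at 0.34, Pecam1 at -0.26 and Slco1a4 at -0.11. The part of these lists in the haemoglobin difference was not tested.

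Both plasma cell genes of at least 5 CPM had lower levels in Dp16 than wild-type, Igkc at -1.12 and Ighm at -0.70. Of all genes tested, 3.11% were at least 1.5-fold lower there. The plasma cell genes under 5 CPM were at 0.11 for Jchain and -0.77 for Ighg2c. Igkc, an antibody light chain, had 3.51 CPM in 5xFAD-Dp16, 45.2 in 5xFAD, 7.32 in Dp16 and 15.9 in wild-type. Of the erythroid regulators and of the platelet genes, 1 each reached 5 CPM (Epor and Itga2b) and neither passed in any comparison, and 0 neutrophil genes reached 5 CPM. The neuron and oligodendrocyte lists had 0 of 4 genes past 1.5-fold in any comparison. Of 4 astrocyte genes Gja1 was lower in Dp16 than in wild-type at -0.60. The microglial gene Csf1r was higher in 5xFAD-Dp16 than in Dp16 at 0.61.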

How the data were processed

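Spatial transcriptomes of 4 brain sections, 1 per genotype, were used. The authors deposited raw UMI counts per gene and spot. The submitters' processing notes name mm10, Seurat and Space Ranger, without versions. The deposited spot table gives each spot's mitochondrial percent, region label, expression cluster and plaque or neighbour mark. The sources used here do not say how these were made, and region abbreviations were left as they stand. Of 720 plaque spots, 10 are blank in the neighbour column and were kept as plaque. Every spot was kept and no doublet caller was run.

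Counts were summed and divided by the section total (CPM), with exact Poisson intervals. Ratios have exact conditional binomial (Clopper-Pearson) intervals, plaque ratios weighted over regions with at least 10 plaque and 10 unmarked spots delta-method ones, and shares exact binomial ones, all at 95%. A count of 0 entered ratios as 3 counts. Folds past 1.5 were counted over all genes with a mean of 5 CPM or more over the 4 sections, or over plaque and unmarked spots for plaque ratios. With 1 section per genotype, no test between genotypes was run. Correlations used log2(CPM + 1). Genes were named by rule: the members and other globins, the 10 most correlated genes, every haem synthesis gene, and of other lists the 3 most abundant and the extremes of Dp16 over wild-type. For lists described by counts only, and where few were needed, fewer are named, and some genes are not reported here. Alas2, Tal1, Klf1, Adm, Hmox1, Ube2l6, Csf1r, Gja1, Mkrn1, Epb42 and the leading genes of clusters were named from the marker lists or clusters after their values were seen. So were Cldn5, Pecam1, Slco1a4, Pdgfrb, Higd1b, Jchain and Ighg2c. The members and lists were chosen with earlier results of these data known. The search of the richest 1% of spots, shares by region and plaque mark, the promoter motifs and leaving out cluster 10 or the highest spot were chosen after the data had been seen.

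Intervals were tested on simulated Poisson counts. Alternatives were TMM factors, other totals, regional standardisation, the mean over spots, leaving out rich spots, clusters or the Hypothalamus, and other thresholds. Promoters and gene positions came from RefSeq (GRCm38.p6). Tools were Python 3.11.15, numpy 2.4.6, pandas 2.3.3, scipy 1.17.1, matplotlib 3.10.9, Biopython 1.88, R 4.3.3 and edgeR 4.0.16.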

Additional observations from a re-analysis of the deposited data

Results flagged for a closer look

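The log2 ratio of 5xFAD over its non-5xFAD section had opposite signs with and without Dp16 for each haemoglobin gene. With Dp16 (5xFAD-Dp16 over Dp16) it was 0.78 for Hba-a1, 0.90 for Hba-a2, 0.73 for Hbb-bs, 0.93 for Hbb-bt and 0.79 for the sum. Without Dp16 (5xFAD over wild-type) it was -0.11 for Hba-a1, -0.20 for Hba-a2, -0.49 for Hbb-bs, -0.49 for Hbb-bt and -0.34 for the sum. With 1 section per genotype the difference was not tested.

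The log2 ratio of plaque over unmarked spots also had opposite signs in the 2 sections with plaques. In 5xFAD-Dp16 it was -0.84 for Hba-a1, -0.78 for Hba-a2, -0.74 for Hbb-bs, -1.07 for Hbb-bt and -0.79 for the sum. In 5xFAD it was 0.54 for Hba-a1, 0.58 for Hba-a2, 0.55 for Hbb-bs, 0.64 for Hbb-bt and 0.56 for the sum. Without the spot richest in haemoglobin in each section, the sum was at -0.35 in 5xFAD-Dp16 and 0.054 (-0.00056 to 0.11) in 5xFAD. Outside cluster 10, with regions not matched, plaque spots were below unmarked spots in both sections, at 358 against 389 CPM in 5xFAD-Dp16 and 376 against 392 CPM in 5xFAD. With regions matched and cluster 10 left out, the sum kept opposite signs in the 2 sections. This difference was not tested either.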

How the results depend on the processing

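No paired analysis was possible because each genotype has 1 section and the labels give no shared replicate numbers. No replicate could be left out for the same reason. Of 439 alternative values, 191 stayed within counting error, 234 moved and 14 changed sign; the causes were not tested. The haemoglobin sum in Dp16 over wild-type kept its sign in 13 of 13 alternatives. It was -1.35 with TMM factors, -1.57 region-standardised, -1.36 as a mean over spots, -1.49 and -1.28 without the richest 1% and 10% of spots, -1.41 without the Hypothalamus, -1.36 without cluster 10 and -1.31 relative to the median of all genes. 5xFAD-Dp16 over 5xFAD was -0.24 with TMM factors, -0.63 region-standardised, -0.42 as a mean over spots, -0.35 and -0.11 without the richest 1% and 10%, -0.38 without clusters 12 and 13, -0.0020 without the Hypothalamus, -0.35 in unmarked spots, -0.23 relative to the median and 0.021 without cluster 10. 5xFAD over wild-type was -0.29 with TMM factors, -0.14 region-standardised, -0.71 and -1.27 without the richest 1% and 10%, -0.65 without the Hypothalamus, -0.29 in unmarked spots, -0.98 without cluster 10 and -0.26 relative to the median. 5xFAD-Dp16 over Dp16 was 0.82 with TMM factors, 0.59 as a mean over spots, 0.42 and -0.098 without the richest 1% and 10%, 0.71 without clusters 12 and 13, 0.76 without the Hypothalamus and 0.40 without cluster 10. The double difference was 0.94 region-standardised, 0.95 as a mean over spots, 1.17 without the richest 10%, 1.06 without clusters 12 and 13, 1.40 without the Hypothalamus, 1.08 in unmarked spots, 1.38 without cluster 10 and 1.08 relative to the median.

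Single genes changed sign as follows. Region-standardised, 5xFAD over wild-type was 0.11 for Hba-a1 and 0.018 for Hba-a2. Without the richest 10%, 5xFAD-Dp16 over Dp16 was -0.21 for Hba-a1, -0.045 for Hba-a2 and -0.11 for Hbb-bs, and 5xFAD-Dp16 over 5xFAD was 0.18 for Hbb-bt. 5xFAD-Dp16 over 5xFAD was 0.045 for Hbb-bs and 0.0996 for Hbb-bt without the Hypothalamus, and 0.11 for Hba-a2, 0.011 for Hbb-bs and 0.18 for Hbb-bt without cluster 10. Without cluster 10, plaque over unmarked spots in 5xFAD-Dp16 was 0.019 for Hbb-bs.

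Genes past the fold, at 1 CPM, 20 CPM and 2-fold, numbered 1330, 208 and 155 in Dp16 over wild-type, 582, 57 and 28 in 5xFAD-Dp16 over 5xFAD, 969, 133 and 122 in 5xFAD over wild-type, and 754, 104 and 68 in 5xFAD-Dp16 over Dp16. Shares of spots with a UMI, unthinned and at 2 UMIs, were 63.0 and 23.8% in 5xFAD-Dp16, 66.6 and 26.2% in 5xFAD, 65.7 and 25.0% in Dp16, and 85.9 and 44.6% in wild-type. Alpha shares without the richest 10% were 40.0, 43.6, 41.0 and 35.7% in 5xFAD-Dp16, 5xFAD, Dp16 and wild-type, and without cluster 10 were 44.7% in 5xFAD, 41.3% in Dp16 and 37.9% in wild-type. Plaque over unmarked spots in 5xFAD-Dp16 and 5xFAD was -0.46 and 0.42 unmatched, -0.43 and 1.10 without the richest 1% and -0.11 and 0.48 without cluster 10, -0.35 and 0.054 without the highest spot of each section, and 0.43 in 5xFAD with at least 20 spots of each kind. Leaving out cluster 10 or the highest spots was chosen after seeing the data. Intervals cover counting error, not differences between mice, and sums depend on a few spots that held over 100 haemoglobin UMIs.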
